A study of Mus musculus with 15 samples.

Results

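A set of 9 genes of fat-pad expansion and of the caveola was followed, all of them measured, among the 19938 genes that could be named on the arrays. The set was chosen by gene symbol. Mest, Bmp3 and Npr3 formed the expansion group of 3 genes, and Cav1, Cav2, Cavin1, Cavin2, Cavin3 and Ehd2 formed the caveola group of 6 genes. Each gene was read from the 1 probe set that carries its symbol alone: Mest (probe set 10537062), Cav1 (10536499) and Cav2 (10536494) on chromosome 6, Bmp3 (10523506) on chromosome 5, Npr3 (10427796) on chromosome 15, Cavin1 (10391332) on chromosome 11, Cavin2 (10346164) on chromosome 1, and Cavin3 (10566454) and Ehd2 (10560190) on chromosome 7. RNA came from gonadal white adipose tissue, the fat pad beside the epididymis, of 15 male C57BL6/J mice with 1 Affymetrix array per mouse. Of these, 8 mice were Sfrp5 KO, carrying the Q27Stop allele, and 7 were wild type. Both genotypes were switched to high-fat food at an age of 4 weeks, kept on it for 8 weeks and killed at 12 weeks. All values are log2 expression from RMA, which corrects background, aligns the arrays and gives 1 number per probe set. On this scale a difference of 1 is a doubling. The labels name no Cre driver, and mice on ordinary chow were not analysed here.

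Mest encodes a lipase-like protein of the endoplasmic reticulum. It is expressed from the paternal allele and rises in mouse fat when adipocytes enlarge under a positive energy balance. Bmp3 is a secreted ligand of the bone morphogenetic protein family, and Npr3 is the clearance receptor that removes natriuretic peptides, hormones that drive lipolysis. Caveolae are flask-shaped pits of the plasma membrane that are dense on adipocytes and also abundant on endothelial cells. Caveolin-1 (Cav1) and caveolin-2 (Cav2) form their coat, cavins (Cavin1, Cavin2 and Cavin3) bind it from the cytoplasm, and the ATPase Ehd2 encircles the neck and holds the pit at the surface.

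Sequences are shown for genes whose covariation across mice is described further on. Mest harbours a microRNA gene, Mir335, within its transcribed region on chromosome 6, and Mir335 levels followed those of Mest. Its mature products, from RefSeq on GRCm38.p6, lie on the plus strand at chr6:30741314-30741336 (5p) and chr6:30741354-30741375 (3p), with the seed, bases 2 to 8, in capitals.
mmu-miR-335-5p: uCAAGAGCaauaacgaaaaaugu
mmu-miR-335-3p: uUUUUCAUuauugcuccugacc
Their seeds differ, so the 5p and 3p products belong to separate seed families. The 250 bases upstream of a RefSeq transcript start are given for Mest (the second of its annotated starts), for the adjacent genes Cav2 and Cav1 (the first of its starts), and for Ehd2 and Npr3, which passed the fit on the Cav1 level. Capitals mark the GC box GGGCGG, the CCAAT box and the TATA box TATAAA. Both strands were searched, and a match on the opposite strand is capitalised as its reverse complement.
Mest, chr6:30737800-30738049, plus strand: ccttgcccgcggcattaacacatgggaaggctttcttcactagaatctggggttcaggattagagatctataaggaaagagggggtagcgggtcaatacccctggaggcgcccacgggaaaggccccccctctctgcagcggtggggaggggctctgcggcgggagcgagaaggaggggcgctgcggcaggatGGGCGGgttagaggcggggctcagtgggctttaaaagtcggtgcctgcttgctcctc
Cav2, chr6:17280935-17281184, plus strand: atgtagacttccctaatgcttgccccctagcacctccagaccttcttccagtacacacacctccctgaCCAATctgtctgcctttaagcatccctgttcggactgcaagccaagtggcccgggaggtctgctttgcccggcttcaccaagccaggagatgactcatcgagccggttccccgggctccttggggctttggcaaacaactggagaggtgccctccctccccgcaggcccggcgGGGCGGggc
Cav1, chr6:17306085-17306334, plus strand: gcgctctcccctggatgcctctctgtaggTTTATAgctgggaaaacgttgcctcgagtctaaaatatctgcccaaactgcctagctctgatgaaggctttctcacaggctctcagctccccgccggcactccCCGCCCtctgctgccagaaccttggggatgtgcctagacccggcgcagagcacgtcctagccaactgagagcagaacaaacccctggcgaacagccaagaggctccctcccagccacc
Ehd2, chr7:15967536-15967785, minus strand: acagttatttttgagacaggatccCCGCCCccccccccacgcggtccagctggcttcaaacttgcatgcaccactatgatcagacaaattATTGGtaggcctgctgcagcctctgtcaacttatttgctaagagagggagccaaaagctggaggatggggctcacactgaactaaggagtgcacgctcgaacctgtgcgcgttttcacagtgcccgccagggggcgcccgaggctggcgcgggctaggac
Npr3, chr15:11907372-11907621, minus strand: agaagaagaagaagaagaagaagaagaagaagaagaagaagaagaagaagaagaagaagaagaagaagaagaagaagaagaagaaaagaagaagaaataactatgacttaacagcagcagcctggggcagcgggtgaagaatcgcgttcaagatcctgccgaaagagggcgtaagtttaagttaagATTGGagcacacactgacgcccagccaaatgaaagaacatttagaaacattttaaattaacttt
Mest, Cav2, Cav1 and Ehd2 each held 1 GC box in these windows, a motif present in 32.7% of the 32851 windows of the same length. Cav2, Ehd2 and Npr3 each held 1 CCAAT box (33.8% of windows), with no overlap between motifs. Cav1 held 1 match to the letters of the TATA box (12.4% of windows), on the opposite strand and near the upstream end of its window. These are matches of letters, and their use in fat was not tested. The Npr3 window had a GC content of 38.8% and the other windows printed lay between 58.0% and 62.4%. Promoter entries were found for 7 of the 9 genes, not for Bmp3 or Cavin3.

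Sfrp5 itself, a secreted binder of Wnt ligands made by adipocytes, had a lowest, median and highest value of 6.02, 6.77 and 7.12 in KO mice, against 7.66, 7.83 and 8.33 in wild-type mice. The KO values lay below the wild-type values in 8 of 8 mice, with a difference of -1.23 (SE 0.16, limma adjusted p = 0.0200). It stayed between -1.29 and -1.13 when 1 mouse was left out, and the adjusted p passed 0.05, up to 0.0670, without wild-type replicate 2, 3, 4 or 5 or KO replicate 2, 5 or 8. Leaving out KO replicate 2 and wild-type replicate 4 together gave -1.17 (limma adjusted p = 0.119). The tissue carried the markers of its label: the mean of 8 adipocyte markers ranged from 11.71 to 11.98 in KO mice and from 11.62 to 11.97 in wild-type mice. A list of 7 measured epididymis genes had a mean of 11.19 in KO replicate 2, against at most 6.93 in the other KO mice and 6.86 in wild-type mice. Single genes of the list were high in wild-type mice too: Adam7 reached 12.52 there (12.73 in KO mice) and Lcn8 8.03 (13.25 in KO mice). The other genes of the list reached at most 7.02 in wild-type mice. The median r of an array with the others was lowest for KO replicate 2 (0.969) and next lowest for wild-type replicate 4 (0.972). Arrays at positions 1 to 7 were wild type and those at 8 to 15 were KO, so array order and genotype cannot be told apart. A further number in the array descriptions, of unstated meaning, lies within the wild-type range in KO replicates 7 and 8 and below it in KO replicates 1 to 6. Mice are separate animals by the labels, and p-values measure the spread between them.

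No genotype difference of the 9 genes passed the test, and the ranges of KO and wild-type mice overlapped for all 9. By limma adjusted p, 0 of 9 passed, where 0.0337% of all 35557 probe sets did (12 probe sets). By unadjusted p, 0 of 9 passed against a background of 9.97% of probe sets. Ranges that did not overlap occurred in 0.217% of probe sets. The 3 expansion genes had lower means in KO mice, with a median difference of -0.16, and the 6 caveola genes had a median difference of 0.04, beside a median of -0.01 over all probe sets.

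Mest had 10.00, 11.02 and 11.57 as its lowest, median and highest value in KO mice, against 10.56, 11.18 and 11.67 in wild-type mice. KO replicates 4 and 2, at 10.00 and 10.15, were the lowest of the 15 mice, and the other KO mice lay within the wild-type range. The means were 10.92 ± 0.58 in KO mice and 11.12 ± 0.43 in wild-type mice (SD, n = 8 and 7), a difference of -0.20 with a 95% interval from -0.72 to 0.32 (limma adjusted p = 0.855; exact permutation p = 0.458, two-sided). Bmp3 had 6.92, 7.80 and 7.99 in KO mice, against 7.58, 7.88 and 7.97 in wild-type mice. Its low values were again KO replicates 2 and 4 (6.92 and 7.38), and its difference of -0.16 had an interval from -0.45 to 0.13 (limma adjusted p = 0.770). Npr3 had 12.13, 12.48 and 12.58 in KO mice, against 12.29, 12.47 and 12.59 in wild-type mice. Here too KO replicates 4 and 2 (12.13 and 12.17) were the 2 lowest mice of the study, and the difference was -0.06 with an interval from -0.23 to 0.10 (limma adjusted p = 0.853). Without these 2 mice the differences turned positive, at 0.08 for Mest, 0.01 for Bmp3 and 0.02 for Npr3, and none passed.

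**Figure D1:**
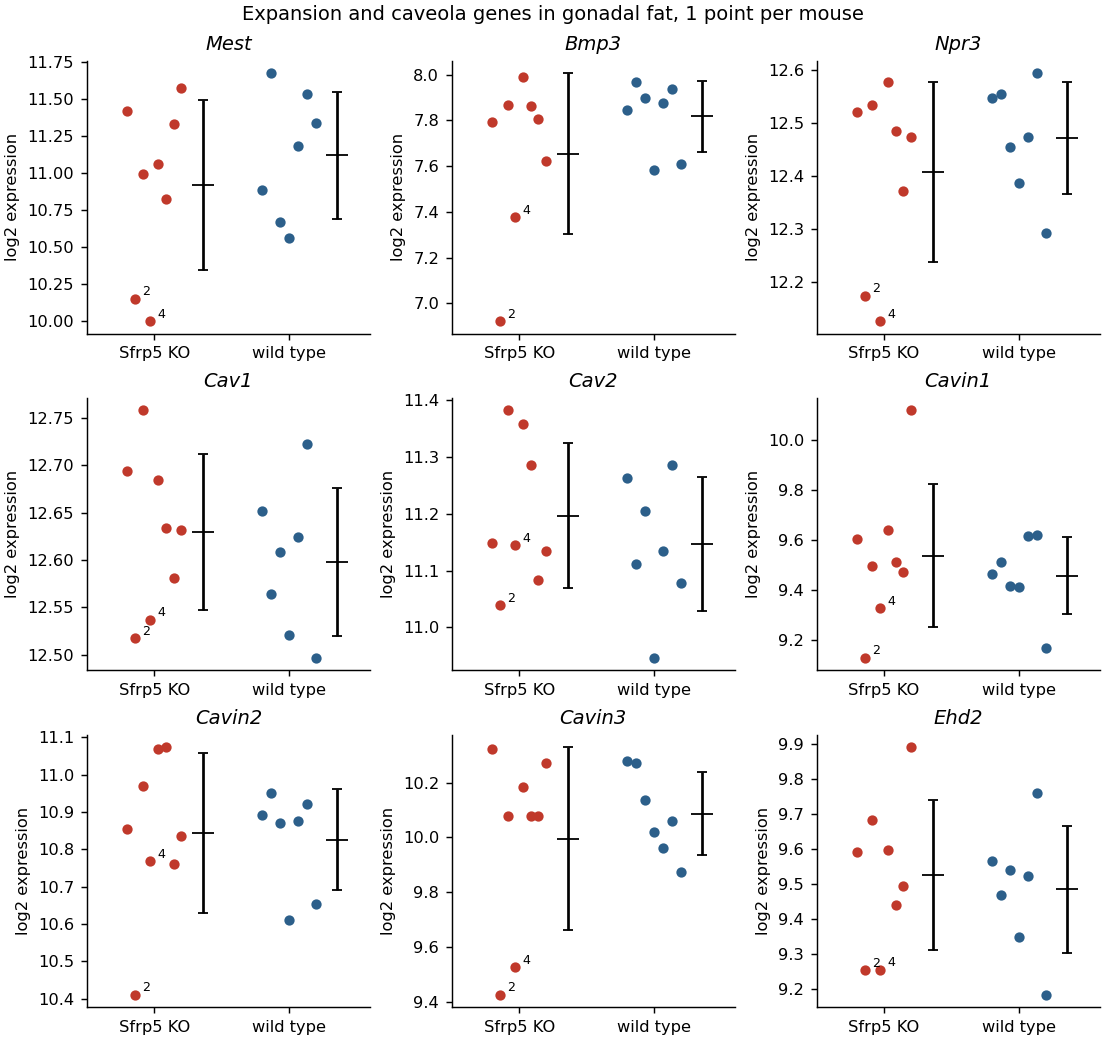
Log2 expression of the 9 genes in each mouse (1 point per mouse), Sfrp5 KO mice left and wild-type mice right, with bars for the mean and SD. KO replicates 2 and 4 are labelled and hold the lowest Mest values, at 10.15 and 10.00, and the genotypes overlap in all 9 panels.

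Cav1 had 12.52, 12.63 and 12.76 in KO mice, against 12.50, 12.61 and 12.72 in wild-type mice, and the 2 sets of values overlapped over nearly their whole length. The difference was 0.03 (SE 0.05, 95% interval from -0.08 to 0.14, limma adjusted p = 0.895). Cav2 had 11.04, 11.15 and 11.38 in KO mice, against 10.95, 11.14 and 11.29 in wild-type mice. Its difference was 0.05, with an interval from -0.09 to 0.19 (limma adjusted p = 0.872). Quantile normalization turned the sign of Cav1 (-0.04), Cav2 (-0.0025) and Cavin2 (-0.03), so the small positive direction of these 3 genes depends on the scaling.

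Cavin1, without which caveolae do not form in mice, had 9.13, 9.505 and 10.12 in KO mice, against 9.16, 9.46 and 9.62 in wild-type mice. KO replicate 8 gave the value of 10.12, above every other mouse, and the difference was 0.08 (interval from -0.17 to 0.33, limma adjusted p = 0.882). Cavin2 had 10.41, 10.85 and 11.07 in KO mice, against 10.61, 10.88 and 10.95 in wild-type mice, with KO replicate 2 lowest. Its difference of 0.02 had an interval from -0.18 to 0.21. Cavin3 had 9.43, 10.08 and 10.32 in KO mice, against 9.88, 10.06 and 10.28 in wild-type mice. Its low values were KO replicates 2 and 4 (9.43 and 9.53), below all wild-type mice, and the difference of -0.09 had an interval from -0.37 to 0.19. Ehd2 had 9.26, 9.54 and 9.89 in KO mice, against 9.19, 9.52 and 9.76 in wild-type mice. Its highest mouse was KO replicate 8, the mouse highest for Cavin1, and its difference was 0.04 (interval from -0.17 to 0.26). The limma adjusted p was 0.971 for Cavin2, 0.881 for Cavin3 and 0.936 for Ehd2.

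**Figure D2:**
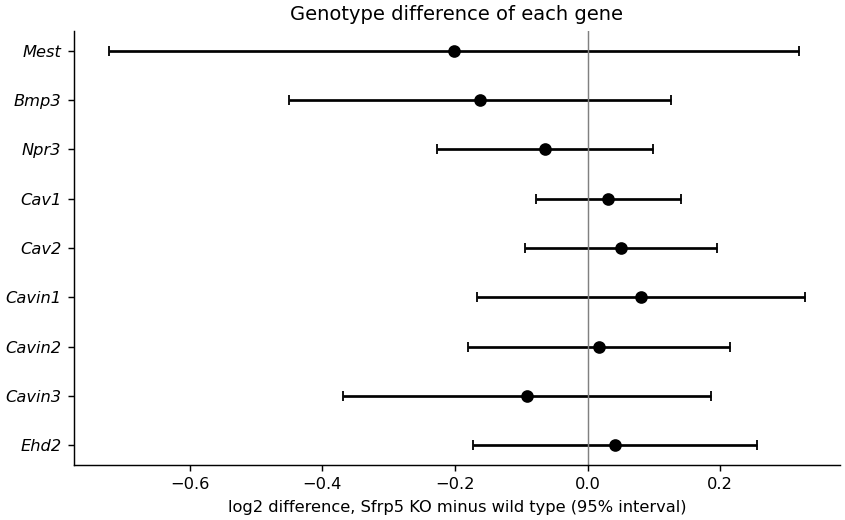
Difference in log2 expression, Sfrp5 KO minus wild type, of each gene (points) with its 95% interval from the limma fit (lines), 8 KO and 7 wild-type mice. All 9 intervals include 0, with the widest for Mest (-0.72 to 0.32) and the narrowest for Cav1 (-0.08 to 0.14), and the signs of Cav1, Cav2 and Cavin2 turn under quantile normalization.

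Genes that work beside the 9 showed no call between genotypes either: 0 genes passed in any of 5 pathway lists. Among 9 genes that shape the caveolar membrane, 4 had higher and 5 lower means in KO mice. The lowest p there was that of Ehd3, an ATPase related to Ehd2, at -0.22 (SE 0.08, limma adjusted p = 0.373), followed by the muscle caveolin Cav3 at -0.05 (limma adjusted p = 0.878). Of 6 proteins that reside in caveolae or lipid rafts, 3 were higher and 3 lower. The fatty acid transporter Cd36 differed by 0.08 (SE 0.04, limma adjusted p = 0.515) and the endothelial nitric oxide synthase Nos3 by -0.08 (limma adjusted p = 0.871). In the natriuretic peptide pathway 5 of 9 were higher and 4 lower, with the receptor Npr2 at -0.17 (limma adjusted p = 0.480) and the hormone Nppa at -0.15 (limma adjusted p = 0.510). Of 8 relatives and receptors around Bmp3, 2 were higher and 6 lower, among them the receptors Bmpr2 at -0.10 and Acvr2a at -0.11 (limma adjusted p = 0.569 and 0.572). Among 6 genes chosen in or near Mest on chromosome 6, 3 were higher and 3 lower. The coat protein gene Copg2 differed by -0.14 and the ciliary gene Cep41 by 0.14 (limma adjusted p = 0.466 and 0.704).

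Spread between mice of a genotype differed widely among the 9 genes. Mest had a within-genotype SD of 0.51, the 582nd highest of 19938 named genes, and spanned 1.67 units, or 3.19-fold, over the 15 mice. Cav1 had an SD of 0.08, ranking 19303rd, and spanned 1.20-fold. Bmp3 (SD 0.28), Cavin3 (0.27) and Cavin1 (0.24) followed Mest, Ehd2 (0.20) and Cavin2 (0.18) were intermediate, and Npr3 (0.14) and Cav2 (0.12) varied little. All 3 cavins had higher SDs than both caveolins. The caveolins were also brighter: KO means were 12.63 for Cav1 and 11.20 for Cav2, against 9.54 for Cavin1, 10.00 for Cavin3 and 10.84 for Cavin2. The part of brightness in these SDs was not tested.

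No gene of the set passed a fit on the level of Mest across mice, and all 8 slopes were positive, beside a median slope of -0.0023 over all probe sets. In a limma fit of each probe set on the Mest level with genotype as a term, 0 of 8 passed by adjusted p (1.83% of 35556 probe sets did, 1.59% with a positive slope) and 5 of 8 had an unadjusted p below 0.05 (15.4% of probe sets, 9.33% with a positive slope). The 5 were Bmp3, Npr3, Cavin1, Cavin3 and Ehd2. The fitted slope per unit of Mest was 0.37 for Cavin3 (SE 0.10, limma adjusted p = 0.0777), 0.34 for Bmp3 (SE 0.12, limma adjusted p = 0.174), 0.29 for Cavin1 (SE 0.10, limma adjusted p = 0.163), 0.24 for Ehd2 (SE 0.09, limma adjusted p = 0.198) and 0.19 for Npr3 (SE 0.07, limma adjusted p = 0.176). Cavin2 (0.16), Cav1 (0.07) and Cav2 (0.05) had smaller slopes.

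Over both genotypes, these relations weakened without 2 KO mice. Over values centred within genotype, Pearson's r with Mest was 0.72 for Cavin3 (permutation p = 0.0103), 0.67 for Npr3 (p = 0.0146), 0.64 for Cavin1 (p = 0.0168), 0.62 for Bmp3 (p = 0.0245) and 0.62 for Ehd2 (p = 0.0218), with 15 mice and 100000 permutations within genotype. Spearman's rho was 0.66 for Cavin1 (permutation p = 0.0144), 0.50 for Cavin3 (p = 0.0755), 0.49 for Npr3 (p = 0.0876), 0.49 for Ehd2 (p = 0.0875) and 0.41 for Bmp3 (p = 0.148). When KO replicates 2 and 4, the mice farthest from the Mest median, were left out, r over the 13 mice was 0.39 for Cavin1, 0.30 for Ehd2, 0.21 for Cavin3, 0.16 for Npr3 and 0.08 for Bmp3. Among the 6 KO mice that remained it was 0.71 for Cavin3, 0.65 for Cavin1 and 0.61 for Ehd2, and it turned to -0.34 for Npr3 and -0.76 for Bmp3. KO replicate 8 was the highest of these 6 for Mest (11.57), Cavin1 (10.12) and Ehd2 (9.89), and r without it was not taken. The fit without KO replicates 2 and 4 gave 0 of 8 slopes with an unadjusted p below 0.05. Without replicate 2 alone or replicate 4 alone it gave 2 and 3. The share of all probe sets below 0.05 unadjusted was not taken in these fits. Of the 36 correlations computed with Mest or Cav1, Benjamini-Hochberg adjusted p-values for these 5 r values lay between 0.0337 and 0.0519.

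**Figure D3:**
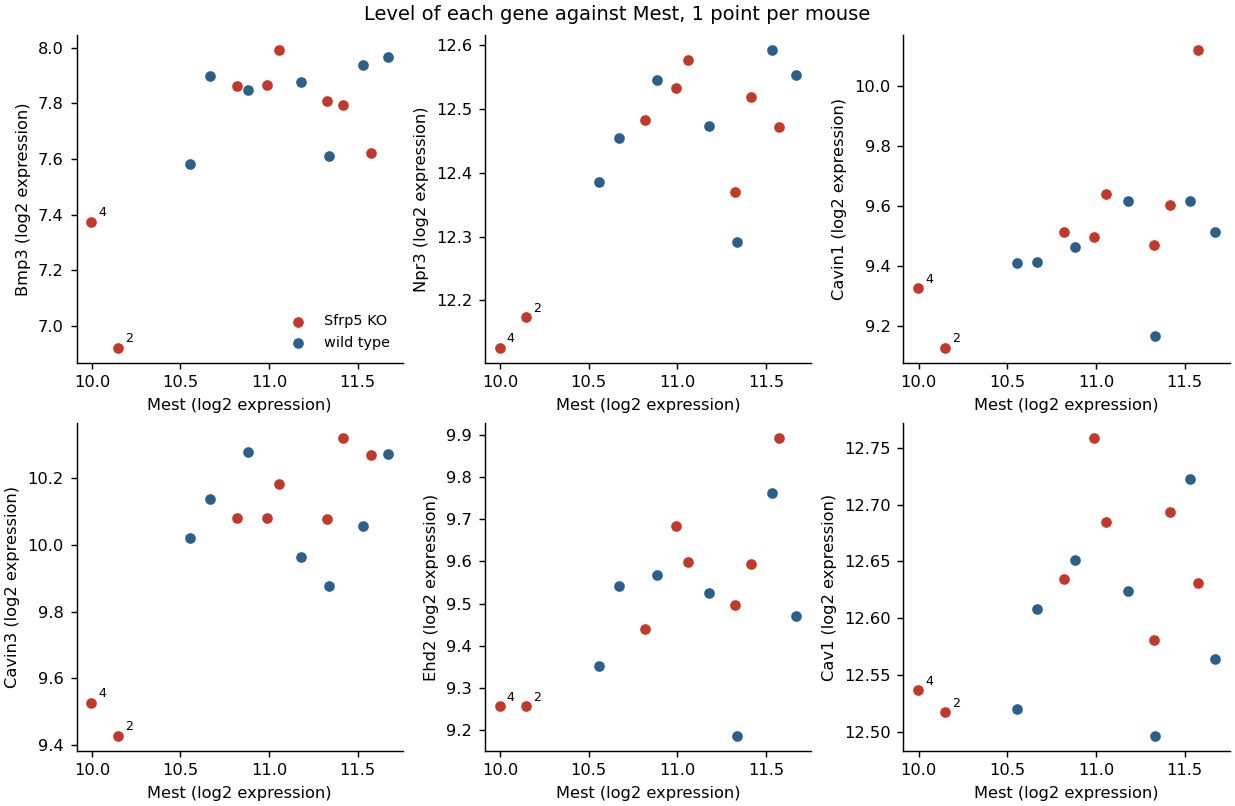
Log2 expression of Bmp3, Npr3, Cavin1, Cavin3, Ehd2 and Cav1 (vertical) against log2 expression of Mest (horizontal), 1 point per mouse, Sfrp5 KO and wild type in separate colours. KO replicates 2 and 4, labelled, sit at the low end of Mest (10.15 and 10.00) and hold the lowest Cavin3 values (9.43 and 9.53), and r for Cavin3 falls to 0.21 without them.

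Within KO mice alone, r of Cavin3 with Mest was 0.94 (exact permutation p = 0.00295, n = 8), and within wild-type mice it was 0.02 (exact permutation p = 0.973, n = 7). Cavin3 was low in the 2 low-Mest KO mice, at 9.43 and 9.53, whereas the wild-type mouse with the lowest Mest (replicate 4) had 10.02. The slope of Cavin3 on Mest was steeper in KO mice by 0.54 (SE 0.17, unadjusted p = 0.00653, limma adjusted p = 0.790), so the difference between genotypes did not pass. Of the 8 genes 1, Cavin3, had an unadjusted interaction p below 0.05, beside 6.13% of probe sets, and 0 of 35556 probe sets passed after adjustment. In KO mice r was also above 0.7 for Ehd2 (0.86, exact permutation p = 0.00585, n = 8), Npr3 (0.80, exact p = 0.0258) and Cavin1 (0.79, exact p = 0.0108), of which Npr3 alone turned negative without replicates 2 and 4. In wild-type mice r ranged from 0.02 to 0.46 over the 8 genes, with exact permutation p between 0.308 and 0.973 (n = 7).

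Sfrp5 and Mir335 also covaried with Mest. Sfrp5 had r = 0.88 with Mest (permutation p = 0.00021, rho 0.71 with p = 0.00601, adjusted over the 36 correlations 0.00151), and 0.70 without KO replicates 2 and 4. It was 0.97 in KO mice (exact permutation p = 0.000794, n = 8) and 0.64 in wild-type mice (exact permutation p = 0.131, n = 7). Its slope was 0.58 per unit of Mest (SE 0.09, limma adjusted p = 0.00685), and it passed in 14 of 15 fits that left out 1 mouse, with an adjusted p of 0.05004 without KO replicate 4. Without KO replicates 2 and 4 the slope was 0.39 (limma adjusted p = 0.376). With a marker mean as a covariate the slope was 0.65 (endothelial, SE 0.16), 0.51 (macrophage, SE 0.17) and 0.55 (epididymis, SE 0.11), with limma adjusted p of 0.340, 0.9999 and 0.0601. With the adipocyte mean the slope of Sfrp5 was 0.47 (SE 0.09) and still passed (limma adjusted p = 0.0439). Mir335, read from its own probe set, had r = 0.73 (permutation p = 0.00082, rho 0.81 with p = 0.00104), and 0.77 without the 2 mice. Within genotype r was 0.75 in KO mice (exact permutation p = 0.0352, n = 8) and 0.87 in wild-type mice (exact permutation p = 0.0157, n = 7). Its slope of 0.42 (SE 0.11) did not pass over all probe sets (limma adjusted p = 0.0644). RNA of the host gene and RNA of the microRNA precursor cannot be told apart by a probe set inside the Mest transcript.

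The macrophage and endothelial marker lists moved with Mest as well. The mean of 9 macrophage markers had r = 0.83 with Mest (permutation p = 8e-05, rho 0.91 with p = 7e-05), and 0.73 without KO replicates 2 and 4. It ranged from 8.74 to 10.06 in KO mice and from 8.89 to 9.45 in wild-type mice, and 7 of 9 markers passed the slope fit, among them Cd68 at 0.90 and Adgre1 at 0.69 per unit of Mest (limma adjusted p = 0.0109 and 0.0154). The mean of 10 endothelial markers had r = 0.81 (permutation p = 0.0001, rho 0.91 with p = 3e-05), and 0.76 without the 2 mice. It ranged from 9.02 to 9.44 in KO mice and from 8.998 to 9.56 in wild-type mice. All 10 endothelial slopes were positive and 1 of 10 passed, the junction cadherin Cdh5 at 0.37 (SE 0.06, limma adjusted p = 0.00734). Of 8 adipocyte markers 5 had a positive and 3 a negative slope. The 1 that passed was the hormone leptin (Lep) at 0.60 (SE 0.07, limma adjusted p = 0.00182). Adipoq (-0.05), Fabp4 (-0.10) and Retn (-0.09) were the negative ones. The adipocyte mean had r = 0.49 with Mest (permutation p = 0.0717) and 0.03 without the 2 mice. With the endothelial or the macrophage mean as a covariate, 0 of the 8 genes had an unadjusted p below 0.05 on Mest, and with the adipocyte mean 1 did (Cavin3, slope 0.23, SE 0.09). With the epididymis mean the slope of Cavin3 was 0.29 (SE 0.11, limma unadjusted p = 0.0205) and that of Npr3 0.17 (SE 0.08, limma unadjusted p = 0.0456). Those of Bmp3 (0.19), Cavin1 (0.22) and Ehd2 (0.20) were not below 0.05 in that fit. SEs were wider with the endothelial or macrophage mean: the slope of Cavin3 was 0.33 (SE 0.18) with the endothelial and 0.20 (SE 0.18) with the macrophage mean. The slope of Bmp3 was 0.05 and 0.39 with these covariates, that of Npr3 0.10 and 0.17, that of Cavin1 0.21 and -0.15 and that of Ehd2 0.12 and -0.01. The share of all probe sets below 0.05 unadjusted was not taken in the covariate fits, so their counts of genes have no background beside them. In the smooth muscle and pericyte list 3 slopes on Mest were positive and 4 negative, and 1 of 7 markers passed (Pdgfrb, 0.35). Cnn1 of that list had -0.78 (SE 0.30, limma adjusted p = 0.211), and the list mean had r = -0.20 with Mest. In the progenitor and fibroblast list 4 slopes were positive and 3 negative, and 1 of 7 passed (Lum, 0.41). On Mest 0 passed among 8 mesothelial, 7 epididymis and 5 skeletal muscle markers or in the 5 pathway lists. Between genotypes 0 markers of any list passed: means were higher in KO mice for 5 of 8 adipocyte, 1 of 10 endothelial, 4 of 7 smooth muscle and pericyte, 9 of 9 macrophage, 7 of 7 progenitor and fibroblast, 8 of 8 mesothelial, 7 of 7 epididymis and 4 of 5 skeletal muscle markers. The part of these cell types in the Mest relations was not tested beyond these fits. In bulk tissue, fewer cells of a type and less RNA per cell cannot be told apart.

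Npr3 and Ehd2 followed Cav1 across mice. With Cav1 as the predictor, Npr3 rose by 1.53 per unit of Cav1 (SE 0.34, limma adjusted p = 0.0427) and Ehd2 by 1.995 (SE 0.45, limma adjusted p = 0.0441), so 2 of 8 genes passed, beside 1.5% of probe sets (0.399% with a positive slope). By unadjusted p 7 of 8 were below 0.05, all but Mest, beside 17.6% of probe sets (9.49% with a positive slope). The genes that did not pass had slopes of 2.49 for Bmp3 (SE 0.67, limma adjusted p = 0.0726), 1.26 for Cav2 (SE 0.32, limma adjusted p = 0.0650), 1.64 for Cavin2 (SE 0.47, limma adjusted p = 0.0878), 2.03 for Cavin3 (SE 0.72), 1.55 for Cavin1 (SE 0.69) and 2.86 for Mest (SE 1.51). Leaving out 1 mouse ended the call of Ehd2 in 11 of 15 fits and that of Npr3 in 10 of 15, with adjusted p up to 0.126 and 0.125. The calls of both ended without wild-type replicate 1, 3, 4, 5 or 7 or without KO replicate 1, 2, 4, 5 or 7, and that of Ehd2 also without wild-type replicate 6. With quantile normalization the slope was 1.21 for Ehd2 (limma adjusted p = 0.223) and 1.45 for Npr3 (limma adjusted p = 0.0470). With median centring it was 1.83 for Ehd2 and 1.45 for Npr3 (limma adjusted p = 0.0170 and 0.0142), so the call of Ehd2 depends on the scaling.

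In correlations over the 15 mice, Npr3 had r = 0.85 with Cav1 (permutation p = 5e-05, rho 0.86 with p = 0.00035), Cav2 0.82 (p = 0.00065, rho 0.89 with p = 0.0001) and Ehd2 0.80 (p = 0.00086, rho 0.80 with p = 0.00122). Without the mice farthest from the Cav1 median, KO replicate 3 and wild-type replicate 7, these were 0.83, 0.78 and 0.76. Cavin2 had 0.72 (permutation p = 0.00319), Bmp3 0.72 (p = 0.00168), Cavin3 0.61 (p = 0.0187) and Cavin1 0.53 (p = 0.0492), and their rho lay between 0.64 and 0.70. Adjusted over the 36 correlations, Npr3 had p = 0.0009, Cav2 and Ehd2 p = 0.00387, Bmp3 p = 0.00672, Cavin2 p = 0.0115, Cavin3 p = 0.0449 and Cavin1 p = 0.0932. The relations were present in each genotype for Npr3 and Cav2: r was 0.89 in KO mice (exact permutation p = 0.00131, n = 8) and 0.83 in wild-type mice (exact permutation p = 0.0226, n = 7) for Npr3, and 0.79 in KO mice and 0.87 in wild-type mice (exact permutation p = 0.0227 and 0.0137) for Cav2. Ehd2 had 0.69 in KO mice (exact permutation p = 0.0543, n = 8) and 0.96 in wild-type mice (exact permutation p = 0.000397, n = 7). Mest had 0.45 with Cav1 (permutation p = 0.111).

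**Figure D4:**
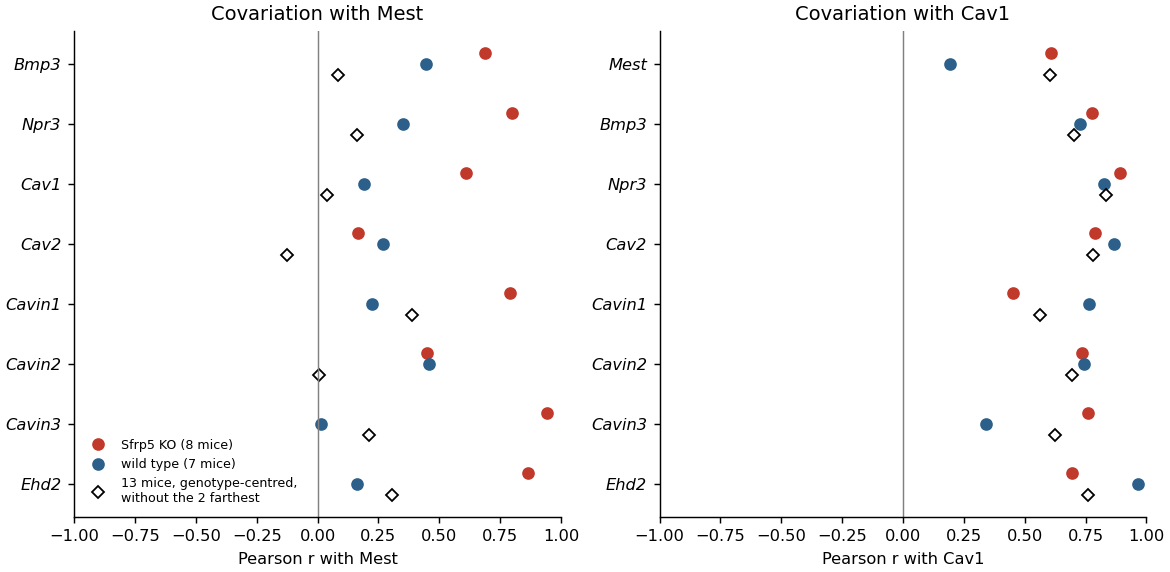
Pearson's r of each gene with Mest (left) and with Cav1 (right), within 8 Sfrp5 KO mice, within 7 wild-type mice, and over 13 genotype-centred mice without the 2 farthest from the median of Mest (KO replicates 2 and 4) or of Cav1 (KO replicate 3 and wild-type replicate 7). Over 13 mice r with Mest is 0.39 at most, and r with Cav1 lies between 0.56 and 0.83.

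The mean of the adipocyte list correlated with Cav1, though 0 of its 8 markers passed the fit on Cav1. By unadjusted p 5 of 8 were below 0.05, and 7 of 8 slopes were positive, with Fabp4 at -0.09 (SE 0.34). The mean of the 8 markers had r = 0.87 with Cav1 (permutation p = 8e-05, rho 0.71 with p = 0.00708), 0.91 without the 2 mice, 0.83 in KO mice (exact permutation p = 0.0110, n = 8) and 0.91 in wild-type mice (exact permutation p = 0.00397, n = 7). The endothelial mean had r = 0.61 (permutation p = 0.0176, rho 0.54 with p = 0.0525) and the macrophage mean 0.36 (permutation p = 0.223). With the adipocyte mean as a covariate, 0 of the 8 genes passed on Cav1 and 0 had an unadjusted p below 0.05, and the slope of Npr3 was 0.31 (SE 0.58) and that of Ehd2 0.70 (SE 0.84). With the endothelial, the macrophage or the epididymis mean as a covariate, 0 of 8 passed and 3, 6 and 5 genes were below 0.05 unadjusted. The slopes in these fits were 1.26, 1.33 and 1.47 for Npr3 and 1.66, 1.52 and 1.82 for Ehd2. The share of all probe sets below 0.05 unadjusted was not taken in any covariate fit. Fewer genes of the set below 0.05 therefore cannot be told apart from fewer probe sets below it in general. The insulin-responsive glucose transporter Slc2a4, 1 of the 6 caveola and raft residents, passed on Cav1 at 2.08 (SE 0.43, limma adjusted p = 0.0392), and no gene passed on Cav1 in the other 4 pathway lists or the 8 marker lists.

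**Figure D5:**
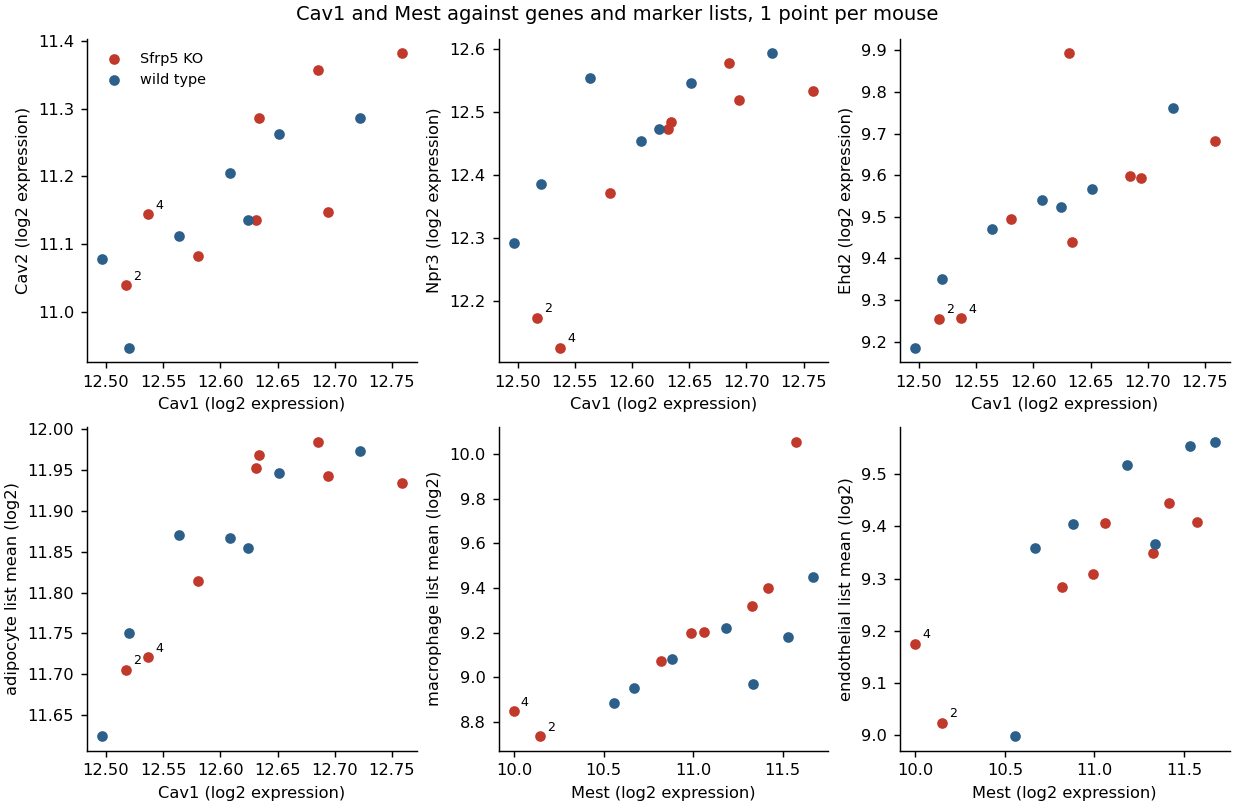
Log2 expression of genes and means of marker lists against log2 expression of Cav1 or Mest, 1 point per mouse, Sfrp5 KO and wild type in separate colours. The adipocyte mean rises with Cav1 (r = 0.87), and the macrophage mean rises with Mest (r = 0.83), in mice of both genotypes.

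Among the 9 genes, all 36 pairs had a positive r over genotype-centred values, from 0.20 (Mest with Cav2) to 0.92 (Bmp3 with Cavin2), with a median of 0.67. Other close pairs were Cavin1 with Ehd2 at 0.87 and Npr3 with Cavin3 at 0.87. The 15 pairs within the caveola group had a median of 0.68, from 0.26 to 0.87, so the pairs that cross the 2 groups were about as high. The median r over all named genes was 0.02 with Mest and 0.06 with Cav1, and the share of positive pairs among other genes was not taken. KO replicate 2 was the lowest mouse for both Bmp3 (6.92) and Cavin2 (10.41), and r of this pair without it was not taken. The r values of the pairs are descriptions over 15 mice that share arrays and tissue make-up.

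The named genes most like Mest by r over the 15 mice were Sox18, an endothelial transcription factor, at 0.96, the patched-domain gene Ptchd4 at 0.95, Adap2 at 0.94, the peptide-amidating enzyme Pam at 0.94 and the small GTPase Rab8b at 0.94, each above 0.91 within KO mice and within wild-type mice. In that order of 19937 genes, Sfrp5 stood 84th, Mir335 777th, Cavin3 880th, Npr3 1293rd, Cavin1 1568th, Bmp3 1742nd and Ehd2 1784th. The genes most like Cav1 were Rfesd at 0.90, Lzic at 0.89, Npdc1 at 0.89, the adenylate kinase Ak3 at 0.89 and Lrrn4cl at 0.89, and Npr3 stood 29th, Cav2 89th and Ehd2 135th. These genes were picked for their likeness, so their r values are a description with no test.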

How the data were processed

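The deposited values are log2 expression per probe set, which the authors made with RMA, per the submitters' processing notes. Those notes list Affymetrix Expression Console 1.1.2800.19935, affy 1.18 and limma without a role. The sources used here do not say whether RMA took all 15 arrays together, or which genome build was used. Depth does not apply to arrays, and their number limits the precision. RMA aligns array distributions, so a shift shared by most genes may be removed in full or in part. The medians of the deposited arrays still ranged from 6.99 to 7.07.

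Of 35557 probe sets, 21789 had 1 symbol in the platform annotation, 1621 several and 12147 none. RefSeq (GRCm38.p6) matched 21698 of these identifiers. The brightest probe set stood for a gene. Genotypes came from the sample labels. Models were fitted with R 4.3.3 and limma 3.58.1 (eBayes, two-sided, Benjamini-Hochberg over all probe sets, threshold 0.05, no filter) for genotype, then genotype with the Mest level, with the Cav1 level, or with the product of genotype and Mest. The anchor gene was left out of its own fit. The fits on genotype, Mest and their product were run on simulated data. The noise there was independent between probe sets, so covariation between genes was not covered. Correlations used values centred within genotype with 100000 permutations within genotype, or exact permutations within 1 genotype. The smallest permutation p possible was 1e-05 with the draws. With exact permutations it was 2.48e-05 in KO mice and 0.000198 in wild-type mice.

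The 9 genes, the 8 marker lists and the 5 pathway lists were chosen with earlier results of these data known. Named genes are the 9, Sfrp5, the 2 with the lowest genotype p per pathway list, and the 5 most like Mest and Cav1, leaving out predicted genes; marker genes, Slc2a4 and Mir335 were named after their values were seen. Alternatives covered normalization, filtering, variance model, weights, covariates, a replicate block and arrays left out. Figures used Python 3.11.15 and matplotlib 3.10.9.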

Additional observations from a re-analysis of the deposited data

Results flagged for a closer look

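In 38 groups of mice, counted over genes and lists, 3 held a mouse far from the others, where chance gives about 1 in 20. Cavin2 was 10.41 in KO replicate 2, below the other KO mice. The endothelial mean was 8.998 in wild-type replicate 4, below the other wild-type mice. The epididymis mean was 11.19 in KO replicate 2, above the other KO mice. The slope of Cavin3 on Mest differed between KO and wild-type mice by 0.54 at an unadjusted p of 0.00653 (limma, adjusted p = 0.790), so it did not pass over all probe sets.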

How the results depend on the processing

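The count of the 9 genes that passed between KO and wild-type mice was 0 under all 29 alternatives, and the interaction count was 0 under all 25. Over all probe sets, the counts past the threshold ranged from 0 to 133 between genotypes (12 as reported), from 0 to 1551 on Mest (652) and from 0 to 1970 on Cav1 (535). On Mest, 1 gene (Cavin3) passed after removal of dim probe sets, with weighted arrays or at a threshold of 0.1, and 0 to 1 when each mouse was left out (Cavin3, without wild-type replicate 1 or 7). On Cav1, where 2 passed, 5 passed with median centring or a threshold of 0.1, 1 with quantile normalization, with ranks of Cav1 or without KO replicates 7 and 8, whose description numbers lie in the wild-type range, and 0 to 3 when each mouse was left out. It was 0 without a genotype term, with the adipocyte, endothelial, macrophage or epididymis mean as covariate, without wild-type replicate 4 and KO replicate 2, and without KO replicates 2 and 4, a setting chosen after seeing the data. The count over all probe sets also changed with the setting, within the ranges above, and is not given here for each setting. These counts of genes therefore do not show a change particular to the set.

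Same-numbered mice correlated between -0.12 and 0.25 and matched best in 0 of 7 cases, so the numbers do not pair the mice. With the replicate block, which drops KO replicate 8, 0 genes passed between genotypes, on Mest or on Cav1, and Sfrp5 differed by -1.28 (limma adjusted p = 0.3001).

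Directions turned in 50 fits, none of them past the threshold before or after. For the KO minus wild-type difference these were, with quantile normalization, Cav1 -0.044, Cav2 -0.0025 and Cavin2 -0.029; with the replicate block, Cavin1 -0.0029 and Ehd2 -0.011; without KO replicates 7 and 8, Cavin1 -0.0056 and Ehd2 -0.014. Without KO replicates 2 and 4 they were Mest 0.080, Bmp3 0.0064, Npr3 0.022 and Cavin3 0.082, with the adipocyte covariate Cavin2 -0.030 and Ehd2 -0.013, and with the endothelial covariate Mest 0.032 and Cavin3 0.0021. Slopes on Mest turned for Cav2 to -0.043 without wild-type replicate 4 and KO replicate 2, -0.041 without KO replicates 2 and 4 and -0.048 (adipocyte covariate). With the endothelial covariate they were -0.021 for Cav1, -0.16 for Cav2 and -0.12 for Cavin2, and with the macrophage covariate -0.15 for Cavin1 and -0.013 for Ehd2. Slopes on Cav1 turned with the adipocyte covariate for Cavin1 (-1.07) and Cavin3 (-0.83), and with the endothelial covariate for Mest (-0.48). The interaction of Cav2 became 0.00068042 with array weights, 0.060 without KO replicates 7 and 8 and 0.036 without wild-type replicate 4 and KO replicate 2. With the replicate block it was -0.047 for Cav1 and -0.12 for Cavin2, and without wild-type replicate 4 and KO replicate 2 it was -0.020 for Cavin2. Without KO replicates 2 and 4 it was -0.48 for Bmp3, -0.17 for Npr3, -0.10 for Cav1 and -0.52 for Cavin2. Leaving out each mouse gave differences from -0.018 to 0.079 for Cavin2, from -0.011 to 0.087 for Ehd2 and from -0.0029 to 0.14 for Cavin1, and interactions from -0.14 to 0.14 for Cavin2 and from -0.11 to 0.10 for Cav2. The cause of these turns was not tested. The arrays give no depth, and their signal over background was not assessed here.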
